A study of Mus musculus with 4 samples.

Results

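The Wnt family holds several pairs of paralogs, named a and b, and several genes that lie next to another Wnt gene on the chromosome. Both kinds of pair were followed here in 2 populations of the embryonic hair peg, for 10 of the 23361 genes in the table: Wnt1, Wnt3, Wnt3a, Wnt6, Wnt7a, Wnt7b, Wnt9a, Wnt9b, Wnt10a and Wnt10b. They form 4 paralog pairs (Wnt3 and Wnt3a, Wnt7a and Wnt7b, Wnt9a and Wnt9b, Wnt10a and Wnt10b) and 4 neighbour pairs (Wnt1 and Wnt10b, Wnt6 and Wnt10a, Wnt3 and Wnt9b, Wnt3a and Wnt9a). The genes were chosen by symbol and map position with their expression in these same libraries known, so their levels and their differences between the populations are given as a description with no p-value. How many of them the fit over all genes called is stated beside the share or number of all genes called. Both populations came from mouse back skin at E17.5 (E, embryonic day). All mice carried Rosa-stop-tdTomato, a red reporter that Cre switches on, and K14-H2BGFP, a green nuclear reporter of epithelial cells, and differed in the CreER line, Nfatc1-CreER or Shh-CreER. Cre was activated by tamoxifen at E15.5 and cells with both colours were sorted, with 2 libraries per population. The reporter marks cells in which the Nfatc1 or Shh locus drove CreER around the time of tamoxifen, with their descendants, and not by itself the cells that expressed these genes when sorted.

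A Wnt is a secreted, lipid-bearing signal protein that binds Frizzled receptors and Lrp co-receptors on nearby cells, which stabilises β-catenin or acts through other routes. Epithelial Wnts are needed for the hair placode to form, and Wnt10b is a widely used early marker of the placode. The paralogs are old duplicates whose proteins remain alike. The neighbours go back to ancestral clusters of Wnt genes, so a gene such as Wnt3 has a close relative on another chromosomal segment and a more distant relative next door.

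The skin was released in a different way for each population. Whole back skin was treated with 0.25% trypsin (16 min, 37°C) to release Nfatc1+ cells. Skin for Shh+ cells was soaked in dispase (0.4 mg/ml, 1 h) to lift off the epidermis and then given trypsin for 10 min. Population, digestion and removal of epidermis cannot be told apart in any difference given here. Expression was deposited as FPKM, in which fragments are divided by transcript length and by the size of the library, a scale on which genes of different length can be compared. Counts were not used here. Low values fell on steps worth 1 fragment, from which depth was estimated. Nfatc1+ replicate 2 and Shh+ replicate 1 reached 0.929 and 0.924 of the depth of Nfatc1+ replicate 1. Shh+ replicate 2 reached 0.575 of it, and its lowest levels are the least precise. The genes that mark the sort followed their labels, with Nfatc1 at 112 and 116 FPKM in Nfatc1+ cells and at 25.3 and 20.1 FPKM in Shh+ cells, and Shh at 10.5 and 11.7 against 143.9 and 144.7 FPKM. Of 16 immediate early and heat shock genes, a class that digestion can induce, 14 were higher in Nfatc1+ cells and 0 in Shh+ cells by limma at an adjusted p under 0.05 (15 and 0 at an unadjusted p under 0.05). For this count and the marker counts below, the shares of all 12750 tested genes called were 18.9% toward Nfatc1+ and 18.1% toward Shh+ cells. The 14 became 9 without Shh+ replicate 1. Epithelial markers (Krt5, Krt14, Epcam, Cdh1, Trp63) were high in every library, with a summed level of 6205 to 6255 FPKM in Nfatc1+ cells and 4002 to 4027 FPKM in Shh+ cells. Krt5 alone was at 4323 and 4317 against 2443 and 2415 FPKM. By limma at an adjusted p under 0.05, 4 of the 5 were higher in Nfatc1+ cells. The Krt14 call (limma adjusted p = 0.0451) was lost with no filter, with the replicate number as a block and with no intensity trend. It was also lost when any single library was left out. Epcam was not called (157 and 146 against 167 and 169 FPKM). By the same test, of 5 Merkel cell markers, 5 were higher in Nfatc1+ cells (summed 45.9 and 52.7 against 17.7 and 21.5 FPKM), and Krt20 was listed at 0 in Shh+ replicate 1. Of 3 tested markers of differentiated epidermis, 3 were higher in Shh+ cells (summed 492 and 558 against 1002 and 802 FPKM). Summed markers of fibroblasts ranged from 286 to 552 FPKM in Nfatc1+ and 548 to 607 FPKM in Shh+ cells, and those of melanocytes from 30.6 to 64.1 and from 7.89 to 41.5 FPKM. Of 8 melanocyte markers tested, Mitf was called toward Nfatc1+ cells (9.74 and 12.3 against 0.860 and 1.29 FPKM) and 7 were not called. The fibroblast markers did not move together: of 7 tested, Dcn was called toward Shh+ cells (40.3 and 57.7 against 326 and 425 FPKM), Col3a1 toward Nfatc1+ cells (76.6 and 162 against 59.8 and 53.6 FPKM) and 5 were not called. The Dcn call was kept at every setting. That of Col3a1 (limma adjusted p = 0.0422) was lost with no filter, quantile normalization or no intensity trend, and without either Shh+ replicate. Without Dcn the fibroblast sum was 245 and 494 FPKM in Nfatc1+ libraries against 221 and 182 FPKM in Shh+ libraries. Dermal papilla markers summed to 7.08 and 10.3 against 18.1 and 13.6 FPKM, and without Crabp1 to 3.53 and 4.41 against 2.77 and 1.97 FPKM. Endothelial markers summed to 2.92 to 4.19 FPKM over the 4 libraries and immune markers to 0.490 to 2.06 FPKM, with Cd3e and Cd207 at 0 in each. The part of these cells and of the digestion in the Wnt levels was not tested. In sorted bulk samples, fewer cells of a type and less RNA per cell cannot be told apart.

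The sequences around the Wnt starts are shown for the divergent neighbours, which are transcribed away from each other, at the 2 loci where an abundant Wnt gene lies beside one near 0. RefSeq promoters (GRCm38.p6, 250 bases before to 50 after the start, 300 in all) matched 8 of the 10 genes, all but Wnt7b and Wnt10a. In the windows below, capitals mark the GC box, GGGCGG on either strand, the letters bound by Sp1-type factors.
Wnt10b, chr15:98778101-98778400, minus strand: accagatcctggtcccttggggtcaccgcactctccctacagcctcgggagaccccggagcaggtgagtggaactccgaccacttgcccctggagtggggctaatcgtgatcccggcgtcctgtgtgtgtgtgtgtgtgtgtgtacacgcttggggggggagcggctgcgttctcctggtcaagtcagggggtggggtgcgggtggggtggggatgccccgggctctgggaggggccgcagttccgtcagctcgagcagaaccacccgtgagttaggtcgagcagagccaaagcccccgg
Wnt1, chr15:98789607-98789906, plus strand: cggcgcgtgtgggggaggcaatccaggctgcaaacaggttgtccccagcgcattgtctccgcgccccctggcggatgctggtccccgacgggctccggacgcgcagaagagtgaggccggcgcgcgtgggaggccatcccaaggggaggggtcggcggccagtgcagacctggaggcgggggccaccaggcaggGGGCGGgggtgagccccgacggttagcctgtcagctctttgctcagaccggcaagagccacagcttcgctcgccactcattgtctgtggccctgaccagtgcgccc
Wnt3, chr11:103773925-103774224, plus strand: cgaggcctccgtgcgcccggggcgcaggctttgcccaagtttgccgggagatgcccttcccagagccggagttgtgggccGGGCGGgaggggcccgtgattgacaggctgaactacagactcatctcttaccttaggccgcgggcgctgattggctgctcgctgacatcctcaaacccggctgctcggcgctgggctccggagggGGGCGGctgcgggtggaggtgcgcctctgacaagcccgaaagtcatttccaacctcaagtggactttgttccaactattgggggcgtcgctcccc
Wnt9b, chr11:103749772-103750071, minus strand: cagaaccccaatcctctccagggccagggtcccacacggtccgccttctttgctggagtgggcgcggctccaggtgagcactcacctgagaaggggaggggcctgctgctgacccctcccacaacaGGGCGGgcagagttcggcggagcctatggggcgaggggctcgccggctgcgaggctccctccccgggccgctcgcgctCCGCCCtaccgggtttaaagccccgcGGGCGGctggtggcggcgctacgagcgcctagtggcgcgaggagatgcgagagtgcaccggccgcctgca

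All 8 windows were rich in CpG dinucleotides, with 18 (Wnt10b) to 58 (Wnt9a) per window against a median of 7 over 32851 promoters, and in G and C, with 65.7% (Wnt3) to 86.3% (Wnt3a) against a median of 52.7%. A GC box was found in 7 of the 8 and in 35.7% of all promoters. Wnt10b, the most abundant Wnt mRNA in Shh+ cells, was the one without it, while Wnt9b had 3, Wnt3 had 2 and Wnt1 had 1. The forms of a TCF/LEF site searched here, CTTTGAT and CTTTGAA on either strand, were in 0 of the 8 windows and in 8.65% of all promoters. Other forms of the site were not searched, and the letters ctttgtt can be read in the Wnt3 window above. TATAAA was in 0 of the 8 and in 13.6% of all. No match says only that the searched letters are not in this window.

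Paralogs are alike over their coding sequence but share no exact run as long as a read, which bears on how reads are assigned within a pair. Aligned coding sequences (GENCODE, GRCm38) were 77.9% identical between Wnt3 and Wnt3a, 77.8% between Wnt7a and Wnt7b, 71.2% between Wnt10a and Wnt10b and 70.4% between Wnt9a and Wnt9b. Neighbours were 61.4% to 63.6% identical. The longest run of bases shared exactly by transcripts of any 2 of the 10 genes, untranslated parts included, was 27 bases. It was shared by Wnt7a and Wnt9b, against reads of 100 bases. The longest runs within the coding sequences of the paralogs on chromosome 11 are shown as examples, in full and in lower case.
Wnt3 and Wnt3a, from coding base 225 of Wnt3 and 216 of Wnt3a: gggcatccaggagtgccagca
Wnt9a and Wnt9b, from coding base 1033 of Wnt9a and 1015 of Wnt9b: tggtgctgctacgtggagtgc

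The levels of the 10 genes differed widely within each population. In Nfatc1+ cells the order of mean level was Wnt6, Wnt7b, Wnt10a, Wnt10b, Wnt3, Wnt7a and Wnt3a, from 58.4 ± 0.159 FPKM down to 0.951 ± 0.124 FPKM (SD, n = 2). In Shh+ cells it was Wnt10b, Wnt6, Wnt3, Wnt10a, Wnt7b, Wnt7a and Wnt3a, from 201 ± 0.462 FPKM down to 1.54 ± 0.0530 FPKM. In both orders, genes that follow each other did not overlap in their library values. Wnt9a, Wnt9b and Wnt1 came last in both populations, at 0.514 FPKM or less in every library, and their values overlapped one another in Nfatc1+ cells. For every comparison across genes, a gene was kept where its 4 libraries averaged 0.5 FPKM or more, and 7 of the 10 passed. Wnt3a was the lowest to pass, with a mean of 1.24 FPKM, and Wnt9b (0.277 FPKM), Wnt9a (0.181 FPKM) and Wnt1 (0.0502 FPKM) did not.

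**Figure D1:**
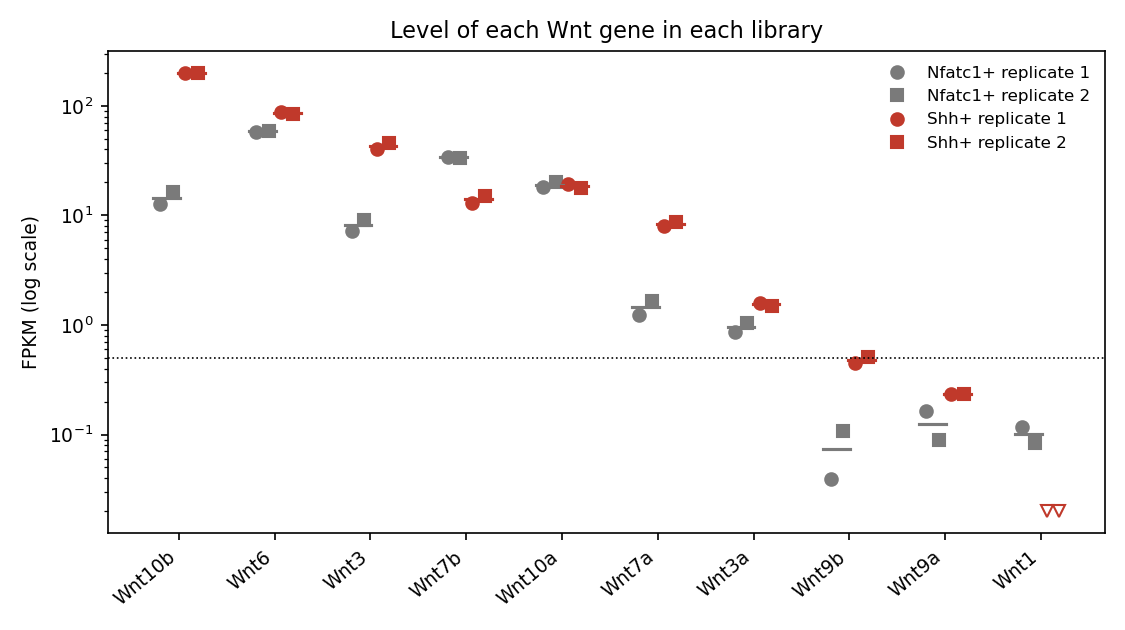
FPKM of the 10 Wnt genes in each library on a log axis, with Nfatc1+ libraries in grey, Shh+ libraries in red and a short line at each mean; open triangles at the bottom are values listed at 0 and the dotted line is 0.5 FPKM. Wnt10b has the widest gap between the populations, and the 4 values of Wnt10a overlap.

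Of the 7 genes that passed, limma on log2(FPKM + 0.5) called 4 toward Shh+ cells (Wnt3, Wnt6, Wnt7a and Wnt10b) and 1 toward Nfatc1+ cells (Wnt7b), and 2 were not called (Wnt3a and Wnt10a). The count toward Shh+ cells was 5 with no intensity trend, where Wnt3a was added, and 5 with no filter, where Wnt9b was added. Over all 12750 tested genes the main fit called 18.1% toward Shh+ cells and 18.9% toward Nfatc1+ cells, at a Benjamini-Hochberg adjusted p under 0.05. With no intensity trend 1898 of 12750 genes were called toward Shh+ cells, and with no filter 2122 of 17092. Counted by overlap alone, both Shh+ libraries were above both Nfatc1+ libraries for 5 of the 7 genes, against 35.6% of all tested genes. The opposite held for 1, against 35.1% of all tested genes. Since the genes were chosen with this contrast known, nothing is read from these counts. The labels do not say whether libraries came from separate animals or litters, so any p-value given here measures only the spread between libraries, which may be technical.

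In the Wnt10 pair, 1 paralog was far higher in Shh+ cells and the other was at overlapping levels in both populations. Wnt10b was at 12.7 and 16.2 FPKM in Nfatc1+ cells and at 201.1 and 200.4 FPKM in Shh+ cells. Wnt10a, whose loss in people causes ectodermal dysplasia with missing teeth and sparse hair, was at 18.0 and 20.1 FPKM in Nfatc1+ cells and at 19.4 and 17.8 FPKM in Shh+ cells. The Wnt10b values lay far apart between the populations, with a gap of 184 FPKM between the nearest libraries, while those of Wnt10a overlapped. In Nfatc1+ cells Wnt10b was thus 0.707 and 0.807 times the level of Wnt10a, and in Shh+ cells it was 10.4 and 11.3 times that level. The mean log2 ratio of Wnt10b to Wnt10a, on log2(FPKM + 0.5), was −0.39 ± 0.129 in Nfatc1+ cells and 3.40 ± 0.0851 in Shh+ cells (SD, n = 2), a difference of 3.79. Wnt10b made up 41.4% and 44.6% of the pair's FPKM in Nfatc1+ cells and 91.2% and 91.9% in Shh+ cells. The sum of the pair was 33.5 ± 3.94 FPKM in Nfatc1+ cells against 219 ± 1.63 FPKM in Shh+ cells, a ratio of 6.54. By itself Wnt10b was 13.9-fold higher in Shh+ cells, with a log2 difference of 3.76. The log2 difference of Wnt10a was −0.03, and it moved between −0.11 and 0.04 when each library was left out in turn, so it had no steady sign.

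Wnt7a and Wnt7b differed between the populations in opposite directions. Wnt7a, known in the mouse limb as the signal of dorsal ectoderm, was at 1.23 and 1.66 FPKM in Nfatc1+ cells and at 7.97 and 8.63 FPKM in Shh+ cells. Wnt7b, a ligand made in embryonic epithelia such as the lung, was at 34.4 and 33.2 FPKM in Nfatc1+ cells and at 12.96 and 15.1 FPKM in Shh+ cells. Neither gene's values overlapped between the populations, and Wnt7b was the higher paralog in all 4 libraries. The ratio of means was 5.74 toward Shh+ cells for Wnt7a (log2 difference 2.19) and 2.41 toward Nfatc1+ cells for Wnt7b (log2 difference −1.24). Wnt7b was 28.0 and 20.0 times the level of Wnt7a in Nfatc1+ cells and 1.63 and 1.75 times in Shh+ cells. The mean log2 ratio of Wnt7b to Wnt7a was 4.15 ± 0.264 in Nfatc1+ and 0.72 ± 0.0715 in Shh+ cells, a difference of −3.43, which ranged from −3.72 with a pseudocount of 0.1 to −3.15 with a pseudocount of 1. The sum of the pair was 35.2 ± 0.514 FPKM in Nfatc1+ cells against 22.3 ± 1.95 FPKM in Shh+ cells, or 1.58-fold higher in Nfatc1+ cells. Wnt7b shares 324 exon bases with AU022754, an antisense gene, and whether the libraries kept strand is not given in the sources used here. AU022754 was listed at 0.478 to 0.857 FPKM, well under Wnt7b in each library.

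**Figure D2:**
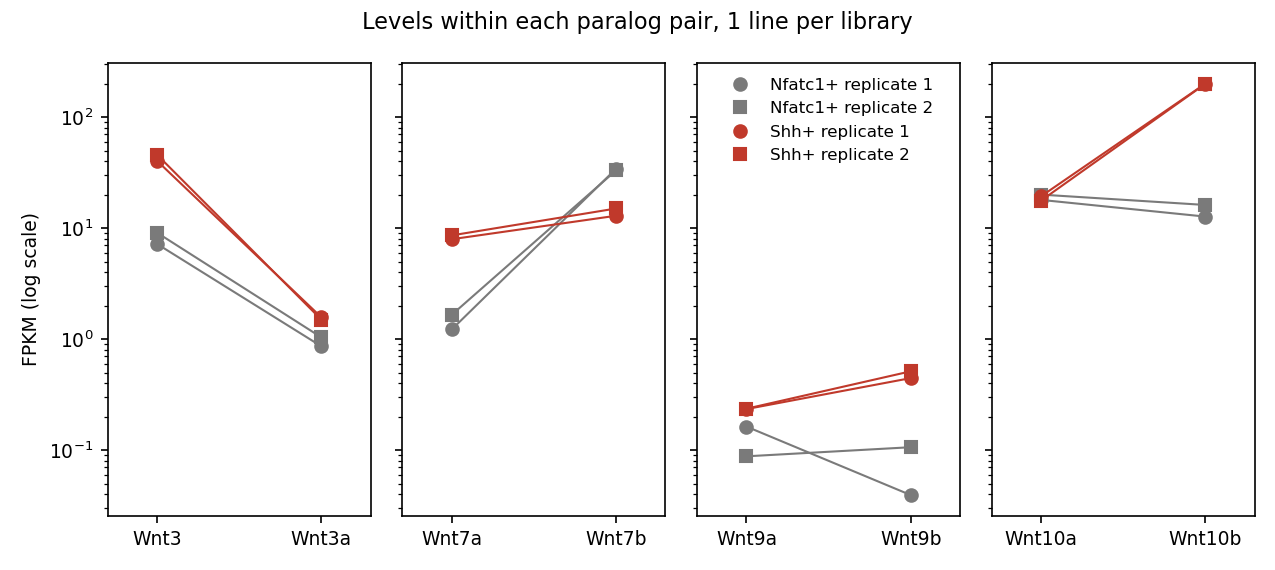
FPKM of both genes of each paralog pair on a log axis, with 1 line per library, Nfatc1+ in grey and Shh+ in red. The lines of the Wnt7 pair cross, as Wnt7a is higher and Wnt7b lower in Shh+ cells, and those of the Wnt10 pair start together at Wnt10a and part at Wnt10b.

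Wnt3 was the main gene of its pair in both populations. Wnt3, which in the mouse embryo is needed for gastrulation, was at 7.22 and 9.11 FPKM in Nfatc1+ cells and at 40.4 and 45.9 FPKM in Shh+ cells. Wnt3a, known for its part in forming somites and the tail, was at 0.863 and 1.04 FPKM in Nfatc1+ cells and at 1.58 and 1.501 FPKM in Shh+ cells. Both genes had both Shh+ libraries above both Nfatc1+ libraries, by ratios of means of 5.29 for Wnt3 (log2 difference 2.34) and 1.62 for Wnt3a (log2 difference 0.49). At the estimated depth the Wnt3a values stood for about 25.8, 28.8, 43.5 and 25.8 fragments, and those of Wnt3 for about 240, 282, 1243 and 879 (Nfatc1+ replicates 1 and 2, then Shh+ replicates 1 and 2). Wnt3 was 8.36 and 8.77 times the level of Wnt3a in Nfatc1+ cells and 25.7 and 30.6 times in Shh+ cells. The mean log2 ratio of Wnt3a to Wnt3 was −2.57 ± 0.0999 in Nfatc1+ and −4.42 ± 0.166 in Shh+ cells, a difference of −1.85. The pair summed to 9.12 ± 1.46 FPKM in Nfatc1+ cells and to 44.7 ± 3.84 FPKM in Shh+ cells.

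Wnt9a and Wnt9b were both scarce. Wnt9b, an inducer of kidney tubules in the mouse, was at 0.0395 and 0.107 FPKM in Nfatc1+ cells and at 0.447 and 0.514 FPKM in Shh+ cells. These values stood for about 1.93 and 4.83 fragments and about 20.2 and 14.5 fragments. Wnt9a, known for its part in joint formation, was at 0.163 and 0.0882 FPKM in Nfatc1+ cells and at 0.235 and 0.237 FPKM in Shh+ cells. Wnt9a has 2 annotated transcripts, so no fragments were estimated for it, but its levels are as low as those that rest on few fragments. The Shh+ libraries were the higher for both genes, by only 0.0716 FPKM between the nearest libraries for Wnt9a. No ratio of the pair was taken at these depths. The pair summed to 0.199 FPKM in Nfatc1+ cells and to 0.717 FPKM in Shh+ cells on average.

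Wnt10b and Wnt1 set a high and a very low gene side by side. Wnt10b spans 98770712 to 98778150 on chromosome 15 of GRCm38, on the minus strand, and Wnt1 spans 98789857 to 98793837 on the plus strand, with starts 11707 bases apart. Wnt1, the midbrain patterning ligand, was at 0.117 and 0.0840 FPKM in Nfatc1+ cells and was listed at 0 in both Shh+ libraries, beside a Wnt10b level of about 200.8 FPKM there. The Nfatc1+ values of Wnt1 stood for about 3 and 2.01 fragments, and 3 fragments would have read as 0.126 FPKM in Shh+ replicate 1 and 0.203 FPKM in Shh+ replicate 2, so a difference in Wnt1 was not detectable at this depth. This limit covers counting error only.

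Wnt3 (chromosome 11, 103774150 to 103817957, plus strand) and Wnt9b (103727364 to 103749821, minus strand) also face apart, with starts 24329 bases from each other. Wnt3 made up 98.8% to 99.5% of the summed FPKM of these neighbours in the 4 libraries. Both genes had their higher values in Shh+ cells, and the Nfatc1+ values of Wnt9b rest on the few fragments given above. Their duplicates, Wnt3a (chromosome 11, 59248033 to 59290752, minus strand) and Wnt9a (59306928 to 59333552, plus strand), have the same divergent layout with starts 16176 bases apart. Wnt3a made up 84.1% to 92.2% of that pair's FPKM, so the Wnt3-type gene was the higher neighbour at both loci, in each library.

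Wnt6 and Wnt10a are the pair in which both neighbours were abundant. They lie in tandem on the plus strand of chromosome 1, Wnt6 from 74771892 to 74785322 and Wnt10a from 74791516 to 74804179, with 6193 bases between them. Wnt6, a ligand of embryonic surface ectoderm, was at 58.3 and 58.5 FPKM in Nfatc1+ cells and at 88.0 and 85.2 FPKM in Shh+ cells, a ratio of means of 1.48 and a log2 difference of 0.56. Its replicates lay close together and its values did not overlap between the populations, in contrast to those of Wnt10a. Wnt6 was 3.24 and 2.91 times the level of Wnt10a in Nfatc1+ cells and 4.53 and 4.79 times in Shh+ cells. The mean log2 ratio of Wnt10a to Wnt6 was −1.59 ± 0.105 in Nfatc1+ and −2.19 ± 0.0559 in Shh+ cells, a difference of −0.60. The remaining genes, Wnt7a (chromosome 6, 91363981 to 91411363) and Wnt7b (chromosome 15, 85535437 to 85582473), both on the minus strand, have no Wnt gene beside them.

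**Figure D3:**
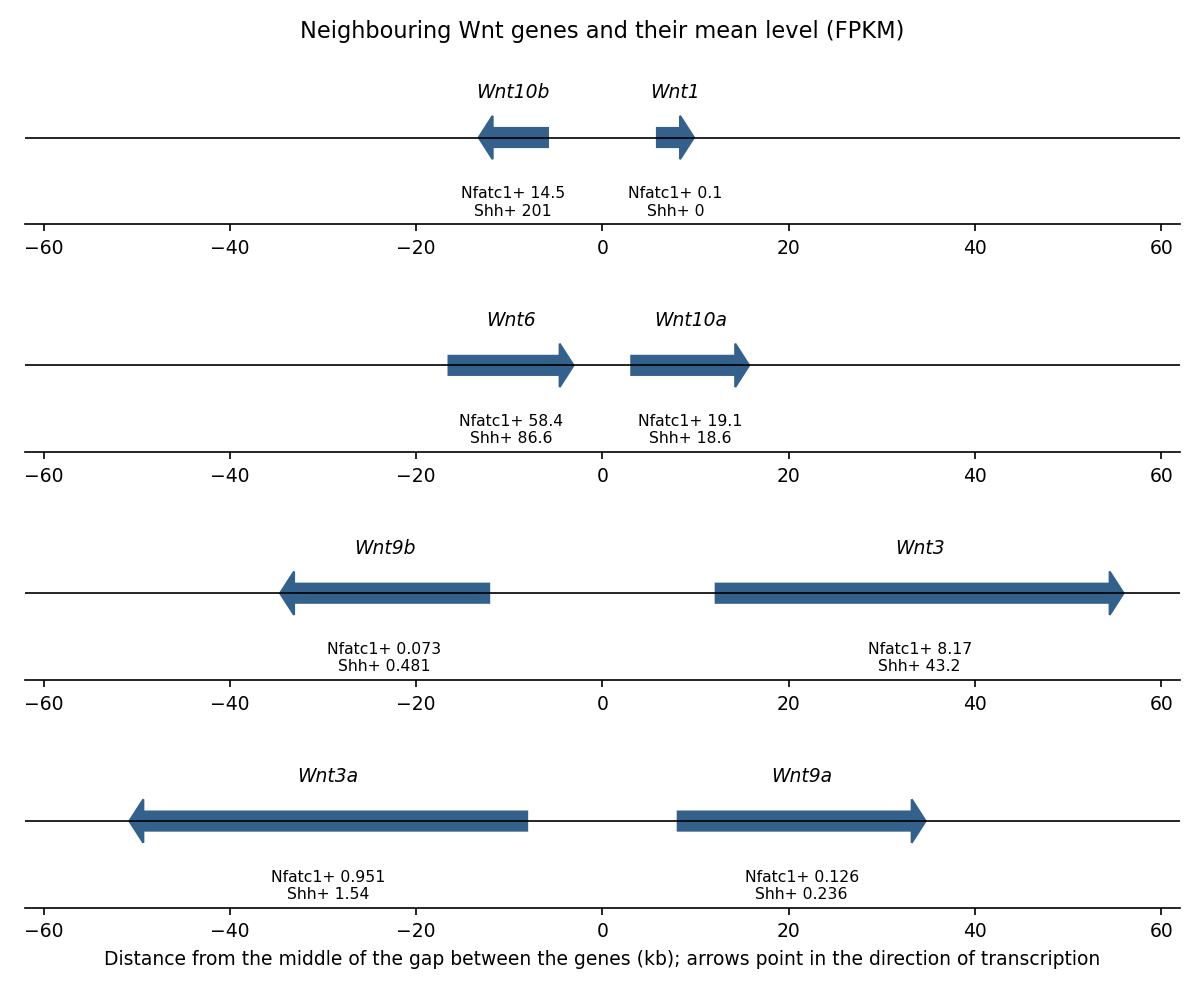
The 4 neighbour pairs drawn to scale in kb around the middle of the gap between the genes, with arrows in the direction of transcription and the mean FPKM of each gene in Nfatc1+ and Shh+ cells below it. The pairs with Wnt1, Wnt9b and Wnt9a point away from each other and hold 1 low gene, and Wnt6 and Wnt10a point the same way and are both well above 0.5 FPKM.

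Genes that flank the Wnt loci were read from the same fit, as the nearest protein-coding gene on each side. Of 12 flanking genes, 7 were tested, with 2 called toward Shh+ cells, 2 toward Nfatc1+ cells and 3 left uncalled, with a median log2 fold change of 0.10 against 0.00 over all tested genes. Over all tested genes 18.1% and 18.9% were called, and nothing is read from counts over so few genes. Arf3, a small GTPase of the Golgi that lies 7497 bases from Wnt10b, was at 74.6 and 77.1 FPKM in Nfatc1+ cells and at 124.1 and 122.6 FPKM in Shh+ cells, with a log2 fold change of 0.70 (limma adjusted p = 0.000134). Arf3 was thus 1.63-fold higher in Shh+ cells, where Wnt10b beside it was 13.9-fold higher. Nsf, an ATPase of membrane fusion that lies 3824 bases from Wnt3, was at 13.3 and 11.7 FPKM in Nfatc1+ cells and at 21.05 and 20.6 FPKM in Shh+ cells, with a log2 fold change of 0.72 (limma adjusted p = 0.000958). On the far side of Wnt9b, Gosr2 was at 26.2 and 26.9 against 27.1 and 31.6 FPKM and was not called (adjusted p = 0.269 by limma).

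The flanks of the Wnt7 genes held the 2 flanking genes called toward Nfatc1+ cells among those that passed the filter. Fbln2, which encodes the matrix protein fibulin 2 and lies 91440 bases from Wnt7a, was at 96.5 and 96.1 FPKM in Nfatc1+ cells and at 27.0 and 27.0 FPKM in Shh+ cells, with a log2 fold change of −1.82 (limma adjusted p = 4.2e-06), the opposite direction to Wnt7a. Ppara, a nuclear receptor of lipid metabolism that lies 152509 bases from Wnt7b, was at 1.37 and 1.24 against 0.118 and 0.127 FPKM (log2 fold change −1.53, adjusted p = 0.00219), the same direction as Wnt7b. Around the Wnt6 and Wnt10a locus, neither Prkag3 nor Cdk5r2 passed the filter on low values. Prkag3 was at 0.290 and 0.174 FPKM in Nfatc1+ cells against 0.0347 and 0 FPKM in Shh+ cells. Cdk5r2 was at 0.0338 and 0.255 against 0.729 and 0.588 FPKM. With no filter, 3 flanking genes were called in each direction.

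**Figure D4:**
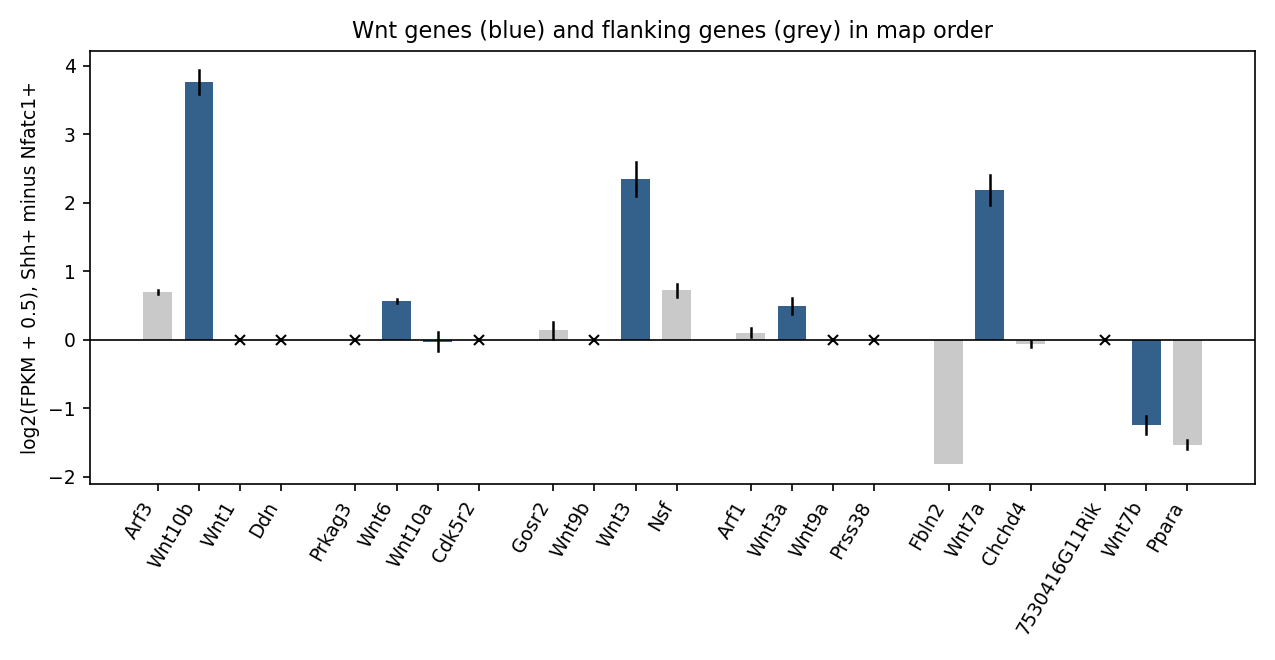
Difference in log2(FPKM + 0.5), Shh+ minus Nfatc1+, for the Wnt genes (blue) and their nearest protein-coding neighbours (grey) at the 6 loci in map order; bars are differences of means of 2 libraries, black lines run from the smallest to the largest difference between any Shh+ and any Nfatc1+ library, and crosses mark genes under 0.5 FPKM. Wnt10b at 3.76 stands beside Arf3 at 0.70, and Wnt7a at 2.19 beside Fbln2 at −1.82.

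Within the whole Wnt family, these 10 genes took a larger share of the mRNA in Shh+ cells. The FPKM of all 19 Wnt genes summed to 219.7 and 230.0 in Nfatc1+ cells and to 431.2 and 437.4 in Shh+ cells. The 10 genes made up 60.6% and 60.9% of that sum in Nfatc1+ cells and 86.3% and 85.8% in Shh+ cells. Wnt10b alone took 5.80% and 7.05% in Nfatc1+ cells, where it ranked 6, and 46.6% and 45.8% in Shh+ cells, where it ranked 1. Wnt6 ranked 1 in Nfatc1+ cells, with 26.5% and 25.4%, and 2 in Shh+ cells, with 20.4% and 19.5%. Its share was lower in Shh+ cells although its level was higher. Wnt7b took 15.7% and 14.4% in Nfatc1+ cells and 3.01% and 3.44% in Shh+ cells. Wnt3 took 3.29% and 3.96% in Nfatc1+ cells and 9.38% and 10.5% in Shh+ cells.

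**Figure D5:**
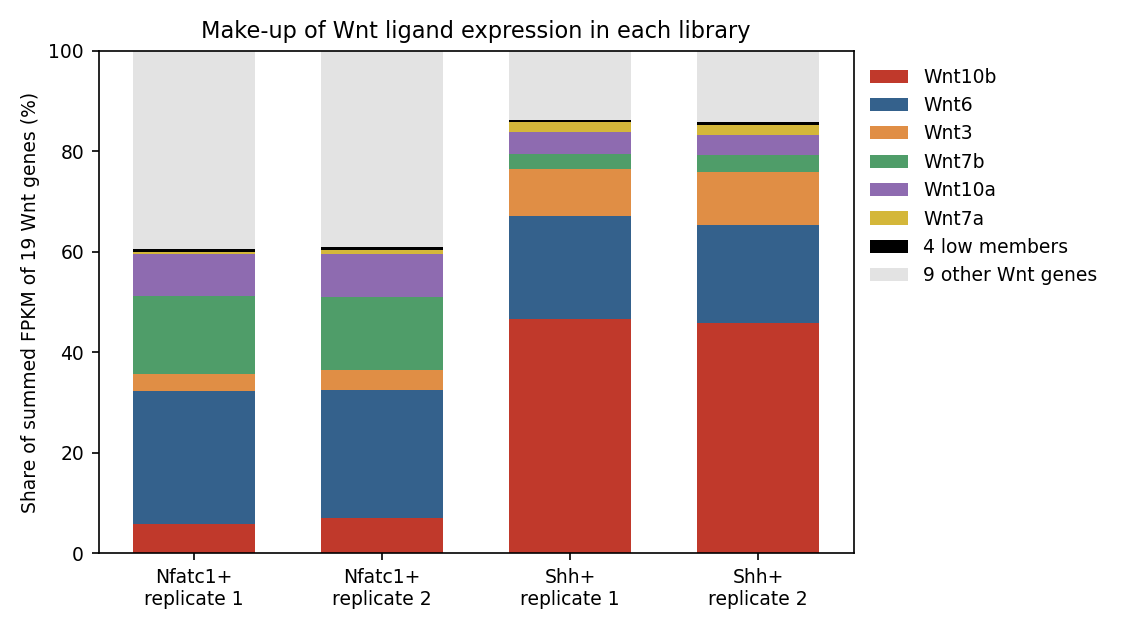
Share of the summed FPKM of 19 Wnt genes in each library, as stacked bars from 0 to 100%, with Wnt1, Wnt3a, Wnt9a and Wnt9b joined as low members (black) and the other 9 Wnt genes in light grey. Wnt10b takes 5.80% and 7.05% in Nfatc1+ cells and 46.6% and 45.8% in Shh+ cells, and the other 9 genes take the larger remainder in Nfatc1+ cells.

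The remaining share belonged to 9 other Wnt genes, of which 5 were tested. By limma, 1 was called toward Shh+ cells, 2 toward Nfatc1+ cells and 2 were left uncalled, with a median log2 fold change of −0.34. The shares of all tested genes called were 18.1% and 18.9%. Wnt5a, best known for signalling outside the β-catenin route, was at 25.9 and 25.2 FPKM in Nfatc1+ cells and at 2.91 and 2.68 FPKM in Shh+ cells, with a log2 fold change of −2.98 (limma adjusted p = 4.2e-06). Wnt2b was at 1.13 and 0.952 against 3.91 and 4.03 FPKM (log2 fold change 1.54, adjusted p = 0.000426). The other gene called was Wnt4, at 47.4 and 51.0 against 39.2 and 38.0 FPKM (adjusted p = 0.00746), and its call ended without Nfatc1+ replicate 2 (adjusted p = 0.0566). Wnt16, at 7.37 and 6.84 against 8.07 and 13.2 FPKM, was not called with all libraries (adjusted p = 0.0960 by limma) and was called toward Shh+ cells without Shh+ replicate 1 (adjusted p = 0.00643). That fit has 1 Shh+ library, the one at 13.2 FPKM, and assumes that it varies like the Nfatc1+ libraries.

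Genes that export Wnts or act on them outside the cell moved in both directions. Of 24 names listed, 16 genes were tested, with 5 called toward Shh+ cells, 6 toward Nfatc1+ cells and 5 left uncalled, with a median log2 fold change of −0.15. Of all tested genes, 18.1% were called toward Shh+ cells and 18.9% toward Nfatc1+ cells. Porcn and Wls, which Wnts need to be secreted, were not called. Porcn, the acyltransferase that adds the lipid, was at 3.57 and 4.25 FPKM in Nfatc1+ cells and at 3.58 and 4.73 FPKM in Shh+ cells (adjusted p = 0.762 by limma). Wls, the carrier that takes Wnts to the surface, was at 92.1 and 87.1 against 81.8 and 92.1 FPKM (adjusted p = 0.670). The values of both overlapped between the populations.

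Extracellular inhibitors were among the genes called in each direction. Higher in Shh+ cells were Dkk4, an antagonist of the Lrp co-receptors (log2 fold change 6.11, 57.4 and 100.5 against 0.298 and 1.04 FPKM), the Wnt-binding Wif1 (3.70) and Sfrp5 (1.64), the Wnt-delipidating enzyme Notum (3.31) and the glypican Gpc3 (1.46). Higher in Nfatc1+ cells by at least 2-fold were Sfrp1, a Frizzled-like decoy (log2 fold change −3.24, 37.6 and 36.4 against 3.63 and 3.30 FPKM), Sostdc1, an antagonist of Wnts and BMPs (−2.32), Trabd2b, a membrane protease of Wnts (−1.50), and Dkk3 (−1.15). Reck and Gpr124, which in mouse brain vessels form a receptor complex for the Wnt7 ligands, are also on this list. Reck was at 2.13 and 3.33 against 1.91 and 2.34 FPKM (adjusted p = 0.356), and Gpr124 was at 9.81 and 9.55 against 7.53 and 4.49 FPKM (adjusted p = 0.0411, up to 0.135 over the alternatives and not called without either Nfatc1+ replicate or without Shh+ replicate 2).

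The tested genes whose values followed a Wnt gene most closely were picked by the root mean square distance of log2(FPKM + 0.5) over the 4 libraries, each gene centred on its own mean. With only 4 libraries in 2 populations, many genes share such a pattern, and the list is a description. For Wnt10b the closest were Frem1 (0.067 log2 units), Shh, whose locus marks the sorted cells (0.0872), and Kremen2 (0.0976), a receptor of Dkk proteins, which was at 15.6 and 16.8 against 206.7 and 219.8 FPKM. For Wnt3 they were Dnajc6, Hic1 and Tubb2b (0.0444 to 0.0474). For Wnt7a they were Tubb2b, Nap1l5 and Foxi3 (0.0344 to 0.0573), where Foxi3 is a transcription factor of ectodermal appendages. For Wnt7b they were Tgfbr2, Hoxb9 and Ggt6 (0.0158 to 0.0199), with Tgfbr2, a TGF-β receptor, at 8.16 and 7.78 against 2.80 and 3.42 FPKM. For Wnt6 they were Marcksl1, Mrps5 and Frmd4b, for Wnt3a they were Ift81, Chchd6 and Ift122, and for Wnt10a they were Dpysl5, 1700088E04Rik and Usp38.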

How the data were processed

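RNA of 2 Nfatc1+ and 2 Shh+ libraries was sequenced by the authors as paired reads of 100 bases. Per the labels and the study's methods, the authors mapped reads to GRCm38/mm10 with TopHat (2.0.13) and deposited FPKM from Cufflinks (2.2.1) for 23361 genes. HTSeq is named in the processing notes without a role. The annotation and strand setting are not given in the sources used here. Cufflinks shares reads of several isoforms by estimate, which adds error that replicates do not show.

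The genes and lists were chosen with earlier results of these data known. The 12750 genes that averaged 0.5 FPKM or more were fitted on log2(FPKM + 0.5) by limma (3.58.1) with an intensity trend, all 4 libraries and no covariate. Tests were two-sided, with Benjamini-Hochberg adjusted p under 0.05 as the threshold, and the fit was tested on simulated data. A fold change on this scale understates low genes. Folds are ratios of mean FPKM. With 2 libraries against 2, an exact permutation test cannot go below p = 0.33. Every Wnt gene of the pairs was named, as were listed genes called with at least a 2-fold difference, flanking genes called, and the 3 closest patterns per gene; other genes, such as Wnt4, Wnt16, Porcn, Wls, Reck, Gpr124, Gosr2, Prkag3, Cdk5r2 and Dcn, were added after their values were seen. Pair ratios were taken where both genes passed the filter. Depth was estimated from genes with 1 transcript of at least 1500 bases below 0.3 FPKM, where 79.2% to 82.6% of values of up to about 4 fragments lay within 0.15 of a whole fragment. Positions and coding sequences came from GENCODE. Alternatives were other pseudocounts, filters and scalings, no trend, a replicate block, another threshold and leaving out each library.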

Additional observations from a re-analysis of the deposited data

How the results depend on the processing

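Under 2 libraries per population, precision was limited by replicate number, and for Wnt1 in all libraries and Wnt9b in Nfatc1+ libraries by a few fragments. Wnt9a, at 0.237 FPKM or less in every library, had no fragment estimate, and the same limit may hold for it. Over the alternatives, 173 counts and pair ratios and 53 differences of single genes were tallied as unmoved. The limit was 1.5 times for counts and 1 SD between replicates for the others. Beyond it, 2 pair ratios and 3 differences of single genes moved, 3 counts rose and 10 fell. With 2 libraries per population, leaving out 1 shifts a ratio or difference by less than that SD by construction. Counts of 0 at every setting were also tallied as unmoved, so the tally is no measure of stability. Wnt10a is among the unmoved, although its sign turned without Nfatc1+ replicate 2 or Shh+ replicate 2. The count of pair genes called toward Shh+ cells, 4, was 5 with no filter or no trend and 3 at the other threshold. At these settings 2122, 1898 and 600 of all genes were called toward Shh+ cells. A library left alone in its population was assumed to vary like the other population. Over all genes, 2310 were called toward Shh+ and 2406 toward Nfatc1+ cells; leaving out a library gave 1529 (without Nfatc1+ replicate 2) to 1741 and 1656 to 1975. An unadjusted p under 0.01 with a log2 fold change above 1 gave 600 and 734, and also 1 other Wnt ligand and 7 digestion genes higher in Nfatc1+ cells and 0 flanking genes higher in Shh+ cells. That threshold changes the p and the fold together, and which of them moved the counts was not tested. The count of other Wnt ligands higher in Shh+ cells was 2 with no filter, and leaving out a library gave 1 to 2 in each direction. Digestion genes higher in Nfatc1+ cells were 9 with no trend and 9 to 15 with a library left out. With a filter at a mean of 1 FPKM, 1 flanking gene was higher in Nfatc1+ cells, since Ppara was no longer tested. The log2 ratio of Wnt7b to Wnt7a differed by −3.72 with a pseudocount of 0.1 and −3.15 with a pseudocount of 1; Wnt7a itself differed by 2.46 and 1.93, and Wnt3a by 0.64 with a pseudocount of 0.1. Leaving out a library moved the difference in log2 ratio from −1.96 to −1.73 for Wnt3a to Wnt3, from −3.62 to −3.24 for Wnt7b to Wnt7a, from 3.70 to 3.88 for Wnt10b to Wnt10a and from −0.67 to −0.52 for Wnt10a to Wnt6.

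The replicate number as a block gave 2424 genes toward Shh+ and 2523 toward Nfatc1+ cells, and 2 other Wnt ligands higher in Shh+ cells. Replicate differences correlated between the populations with r = 0.1144 over 12750 genes, in only 2 pairs, and no label says what the number marks, so the libraries were taken to share a number only.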
